A study of Mus musculus with 2 samples.

Results

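The 10 genes described here encode enzymes of branched-chain amino acid breakdown and the kinase that restrains it, and they were taken by name from a list of 10 symbols, with no threshold on a measured value. All 10 were listed in both libraries, among 16174 genes listed in at least 1 library. Messenger RNA was sequenced from brown adipose tissue, a heat-producing fat depot, of C57BL/6 mice that had eaten chow until 45 weeks of age. The title of the series gives them as female. Each genotype had 1 library. The mice of the control library were D3Bfl/fl, with floxed alleles and no named Cre, and those of the knockout library were D3Bfl/fl-UCP1-Cre+/-. D3B is read as Dnmt3b, a DNA methyltransferase, from knowledge of the study. The Ucp1 promoter drives Cre in brown adipocytes, so the other cells of the depot keep the gene. The labels do not say how many mice a library holds.

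The branched-chain amino acids leucine, isoleucine and valine are first stripped of their amino group by a transaminase, cytosolic Bcat1 or mitochondrial Bcat2. The resulting keto acids are then oxidised without return by the branched-chain keto acid dehydrogenase of the inner mitochondrion, which is switched off when the kinase Bckdk phosphorylates it and on again when the phosphatase Ppm1k removes the phosphate. Beyond that step each amino acid has its own enzymes, which end in acetyl-CoA, acetoacetate or, through propionyl-CoA, succinyl-CoA. Active brown fat is known to take up and oxidise these amino acids, and Slc25a44 is a carrier that brings them into its mitochondria.

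The control library held 9666528 expected counts and the knockout library 10068359, of which the 10 genes took 0.327% and 0.276%. With 1 library per genotype nothing estimates the spread between mice, so no test between genotypes was possible. Each interval below is a 95% counting interval, which treats every read as an independent molecule and covers counting error only. The control was sequenced on lane 2 and the knockout on lane 1, so lane, Cre and genotype cannot be told apart. Dnmt3b itself rested on 15 counts in the control and 7 in the knockout library, a knockout to control ratio of 0.462 (0.155 to 1.17), too few to check the label.

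The depot carried the marks of brown fat in both libraries: Ucp1, the uncoupling protein of brown mitochondria, stood at 4987 FPKM in control tissue and 4271 FPKM in knockout tissue. FPKM counts fragments per kilobase of transcript, scaled to library size, so it allows levels of different genes to be set side by side. Of 8 markers of all adipocytes 5 had a lower FPKM in the knockout library, and their sum was 25925 FPKM in the control against 24218 FPKM. Of the 10 brown adipocyte markers 9 had a lower FPKM in the knockout library, and their sum was 18968 FPKM in the control against 14783 FPKM. The 10 markers of skeletal muscle, a tissue rich in Bcat2, summed to 3.59 and 3.55 FPKM. Of these Acta1, the skeletal muscle actin, was at 1.38 and 2.71 FPKM, 8 had a lower FPKM in the knockout library, and Ckm, the muscle creatine kinase, was listed in neither. The 6 endothelial markers summed to 141.7 FPKM in the control against 109.0 FPKM, with 5 lower, and the 6 smooth muscle and pericyte markers to 105.1 against 130.2 FPKM, with 5 higher. In bulk tissue fewer cells of a type and less RNA per cell cannot be told apart.

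Of the transaminases, the abundant mitochondrial one was lower and the scarce cytosolic one higher in the knockout library. Bcat2 (Entrez gene 12036), the main form outside the brain, was at 140 FPKM in control tissue and 84.3 FPKM in knockout tissue, from 2344 and 1467 counts. The ratio was 0.601 (0.563 to 0.642). Bcat1 (12035), the form of brain, embryo and dividing or activated immune cells, was at 0.74 FPKM in control tissue and 1.44 FPKM in knockout tissue, from 56 and 114 counts. Its ratio was 1.95 (1.41 to 2.74), so the counting intervals of both genes lay clear of 1, on opposite sides. The stretch of 250 bases just before the annotated start is shown for these 2 genes, since they stood farthest from equality in either direction. The sequences are RefSeq's, build GRCm38.p6, 5′ to 3′ along the gene's strand, and capitals mark CG dinucleotides, the sites that DNA methyltransferases act on. The files hold no methylation data.

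Bcat1, chr6:145076158-145076407, minus strand: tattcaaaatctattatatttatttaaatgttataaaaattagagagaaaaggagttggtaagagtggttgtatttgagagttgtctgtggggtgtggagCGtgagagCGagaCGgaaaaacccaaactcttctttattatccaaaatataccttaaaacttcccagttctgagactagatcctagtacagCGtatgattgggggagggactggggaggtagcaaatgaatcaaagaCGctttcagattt

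Bcat2, chr7:45569903-45570152, plus strand: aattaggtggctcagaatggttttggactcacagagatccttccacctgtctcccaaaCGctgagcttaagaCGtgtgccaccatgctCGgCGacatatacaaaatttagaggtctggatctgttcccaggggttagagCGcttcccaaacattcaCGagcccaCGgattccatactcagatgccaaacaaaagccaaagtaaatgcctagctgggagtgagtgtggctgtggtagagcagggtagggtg

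The Bcat1 stretch holds 5 CG dinucleotides and the Bcat2 stretch 7, against a median of 6 and quartiles of 2 and 16 over the upstream-most starts of 27025 genes in the same table. At least 1 CG was present in 91.7% of those genes. Both genes have a further start in the table, and gene-level counts do not tell which start a transcript used. Of the 10 genes 9 were matched, all but Dbt, with CG counts from 2 in Mccc1 to 18 in Mccc2 and Hibch. The letters CCAAT, read on both strands, were in 6 of the 9 stretches and in 34.5% of the 27025, with 4 copies in Ivd and 3 each in Mccc1 and Mccc2. Bcat2, Bckdha and Hibch did not hold them. Of the other motifs searched on both strands, CACCC was in 7 of the 9 and in 51.3% of all, GGGCGG in 3 and 33.0%, TATAAA in 2 and 13.0%, and AGGTCA in 1 and 13.8%.

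Set side by side per length, Bcat2 outnumbered Bcat1 by 189 to 1 in the control and by 58.5 to 1 in the knockout library. Bcat1 made up 0.525% of the summed transaminase FPKM in the control and 1.68% in the knockout library, while the sum went from 140.9 to 85.7 FPKM. The balance of counts between them, which no scaling of the libraries can change, was 0.308 (0.218 to 0.430) of its control value. Markers of macrophages and other immune cells were also read, though 2 libraries cannot show that genes vary together. Of these 9 markers 7 had a higher FPKM in the knockout library, their sum was 424 FPKM in the control against 616 FPKM, and Ptprc, the pan-leukocyte antigen CD45, was at 1.57 and 3.79 FPKM, while the T cell marker Cd3e was at 0.45 FPKM and not listed. The sum of the 6 white adipocyte markers also went from 488 to 923 FPKM, with all 6 higher, and that of the 8 fibroblast markers from 282 to 390 FPKM, with 7 higher. The part of these cell types in the Bcat1 value was not tested. Nor was the part of brown adipocytes, endothelium or muscle, whose markers are given above, in the values of Bcat2 and of the genes below.

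**Figure D1:**
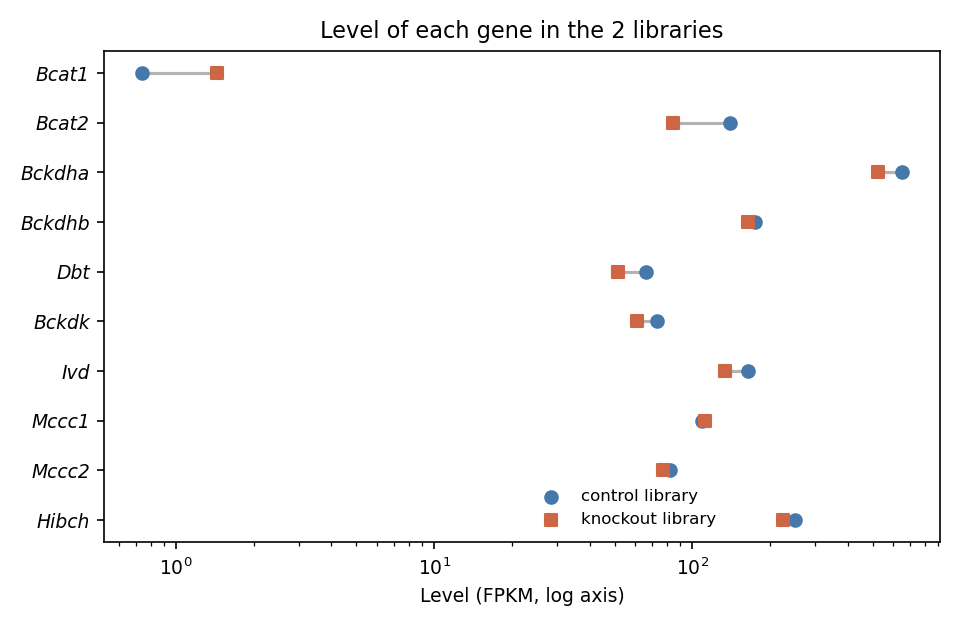
Level in FPKM on a log axis (horizontal) of each of the 10 genes (vertical) in the control library (circles) and the knockout library (squares), 1 library each. Bckdha is the most abundant in both, Bcat2 moves from 140 to 84.3 FPKM, and Bcat1 lies far below the rest at 0.74 and 1.44 FPKM.

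In the dehydrogenase complex the subunits differed unequally. Bckdha (12039), the alpha subunit of the decarboxylase and the one that is phosphorylated, was at 649 FPKM in control tissue and 526 FPKM in knockout tissue, giving a ratio of 0.810 (0.788 to 0.833). It was the most abundant of the 10 genes, at place 176 of all genes in the control and 203 in the knockout library, and made up 37.9% and 36.6% of their summed FPKM. Bckdhb (12040), the beta subunit that pairs with it, was at 176 and 165 FPKM, giving a ratio of 0.938 (0.885 to 0.995), though with FPKM brought to 1 common total in both libraries it was 0.997 (0.941 to 1.06). Dbt (13171), the acyltransferase core to which the other subunits bind, was at 66.3 and 51.8 FPKM, giving a ratio of 0.781 (0.732 to 0.833). Dld, the flavoprotein subunit that this complex shares with the pyruvate and oxoglutarate dehydrogenases, was at 535 and 546 FPKM, and its ratio of 1.02 had an interval of 0.995 to 1.05. Bckdha and Dbt were thus lower by similar factors, and Bckdhb by less. The balance of Bckdha to Bckdhb in the knockout library was 0.864 (0.810 to 0.922) of the control value, that of Bckdhb to Dbt 1.20 (1.10 to 1.31), and that of Bckdha to Dbt 1.04 (0.967 to 1.11). Per length, Bckdha exceeded Bckdhb 3.69-fold in the control and 3.19-fold in the knockout library.

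Both regulators of the complex were lower, the phosphatase by more than the kinase. Bckdk (12041), the inhibitory kinase, was at 72.7 FPKM in control tissue and 61.2 FPKM in knockout tissue, giving a ratio of 0.842 (0.789 to 0.898). Its counts were not whole, so they include reads divided with another gene. Ppm1k, the activating phosphatase, was at 7.69 and 4.42 FPKM, from 411 and 246 counts that were also not whole, giving a ratio of 0.575 (0.489 to 0.675). The kinase therefore stood 9.46-fold above the phosphatase in the control and 13.8-fold above it in the knockout library, and the balance of their counts was 1.46 (1.23 to 1.74) times the control value. Measured against its substrate, the kinase differed by no more than counting error: Bckdk to Bckdha was 1.04 (0.968 to 1.12) times the control value. Against Bckdhb it was 0.897 (0.822 to 0.979) times. The carrier Slc25a44 was at 28.7 and 30.5 FPKM, giving a ratio of 1.06 (0.974 to 1.16). Klf15, a transcription factor that raises amino acid breakdown genes in muscle and liver, was at 19.2 and 16.7 FPKM, and the interval of its ratio, 0.871, ran from 0.756 to 1.004.

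**Figure D2:**
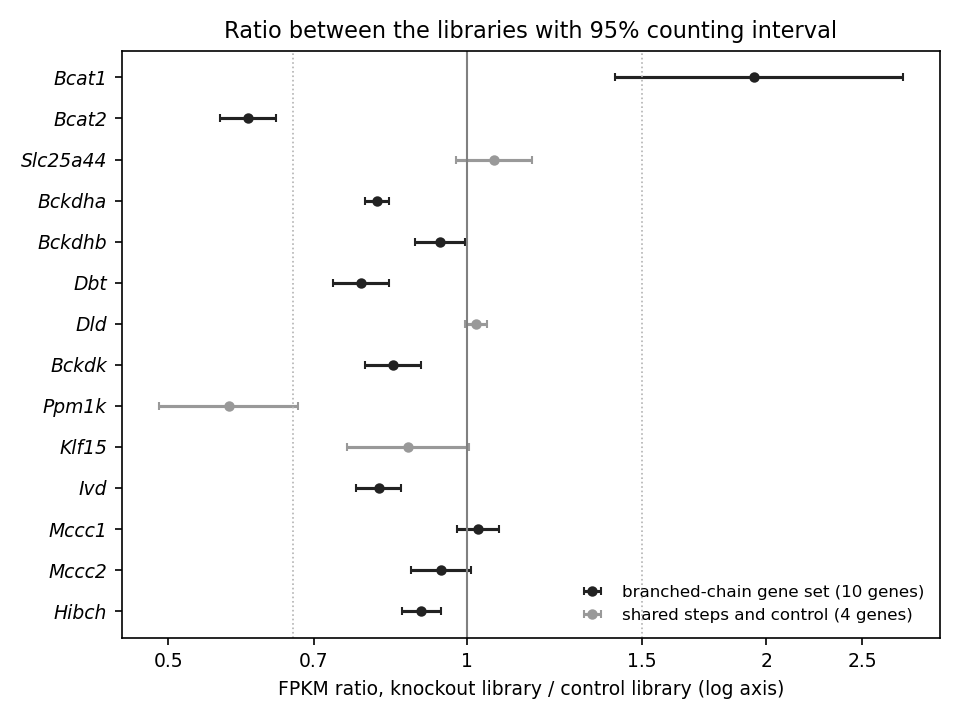
FPKM ratio of the knockout to the control library on a log axis, with 95% counting intervals, for the 10 genes (black) and for 4 genes of shared steps and control (grey). Dotted lines mark 1.5-fold in either direction. Bcat2 and Ppm1k lie to the left of the lower line, Bcat1 to the right of 1, and Mccc1 and Dld close to 1.

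Past the shared steps, the leucine enzymes differed among themselves. Ivd (56357), isovaleryl-CoA dehydrogenase, the first enzyme that serves leucine alone, was at 164 FPKM in control tissue and 134 FPKM in knockout tissue, giving a ratio of 0.814 (0.773 to 0.857). The next enzyme is the biotin-dependent methylcrotonyl-CoA carboxylase. Its biotin-carrying subunit Mccc1 (72039) was at 109 and 112 FPKM, giving a ratio of 1.03 (0.976 to 1.08), and its other subunit Mccc2 (78038) was at 82.1 and 77.3 FPKM, giving a ratio of 0.941 (0.879 to 1.01). Both intervals included 1, and together they ran no lower than 0.879 and no higher than 1.08. The balance of Ivd to Mccc1 was 0.794 (0.739 to 0.852) of the control value. Ivd and Bckdha were lower by factors that counting error does not separate, with a balance of 1.004 (0.947 to 1.06).

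The valine branch is represented by Hibch (227095), the hydrolase that frees hydroxyisobutyrate from coenzyme A. It was at 250 FPKM in control tissue and 224 FPKM in knockout tissue, giving a ratio of 0.899 (0.859 to 0.940). Its difference was smaller than that of Ivd, with a balance of Hibch to Ivd of 1.10 (1.03 to 1.18) times the control value. The 14 balances were computed for pairs chosen after the values were seen.

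**Figure D3:**
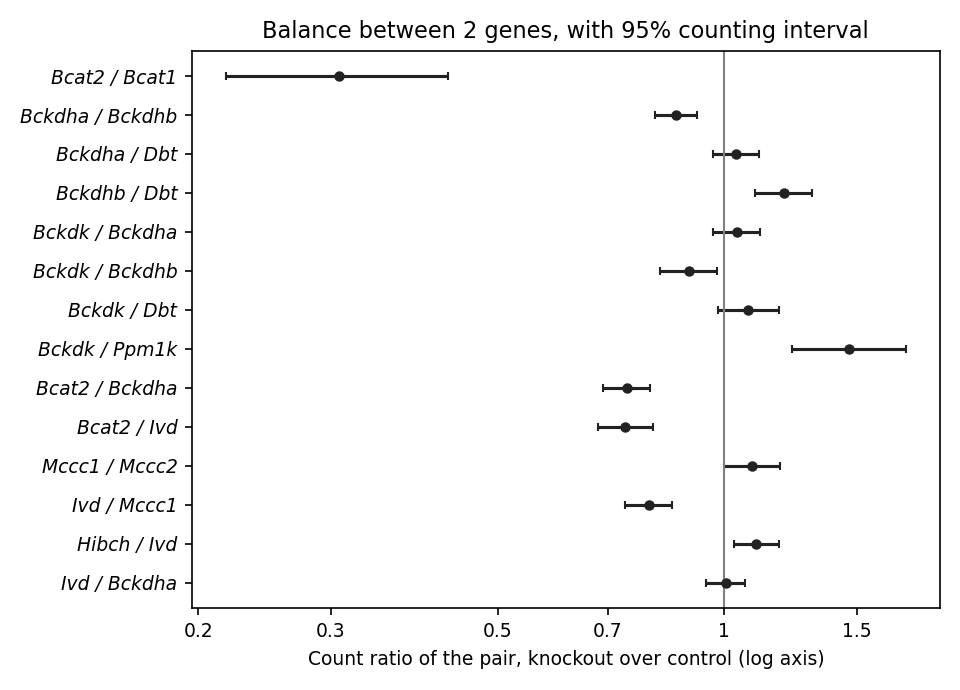
Count ratio between 2 genes in the knockout library over the same ratio in the control library, on a log axis, with 95% counting intervals, for 14 pairs. A pair with the same balance in both libraries lies at 1, and Ivd to Bckdha is closest to it. The ratio of Bcat2 to Bcat1 lies farthest from 1, at 0.308, and that of Bckdk to Ppm1k is the highest, at 1.46.

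The order of levels was nearly the same in both libraries. In the control library it ran Bckdha, Hibch, Bckdhb, Ivd, Bcat2, Mccc1, Mccc2, Bckdk, Dbt, Bcat1, and of the neighbours only Bckdhb and Ivd had overlapping counting intervals. In the knockout library Mccc1 stood above Bcat2, and Bcat2, with an interval of 80.0 to 88.7 FPKM, overlapped Mccc2, with 73.6 to 81.1 FPKM. The 10 genes had a median level of 125 FPKM in control tissue and 98.2 FPKM in knockout tissue, against 8.39 and 8.31 FPKM over all tested genes. A gene was tested when it reached 1 FPKM in either library, as 11746 genes did, among them all 10; Bcat1 did so only through the knockout library.

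The size of a difference was scored as the log2 quotient of FPKM + 1, knockout over control, a scale that understates differences of scarce genes. A gene was called when it passed 1.5-fold on this scale and its counting interval lay clear of 1. One gene, Bcat2, was called lower, with a log2 ratio of -0.73, at or above the value of 2.03% of tested genes. Over all tested genes 3.41% were called lower and 4.35% higher, and no member was called higher. Bcat1 missed the call with a log2 ratio of 0.49, and it was called higher with a pseudocount of 0.1 FPKM (0.87) or with counts scaled to library size alone (CPM). Under those settings 747 and 687 of all tested genes were called higher, against 511 on the main scale. The median log2 ratio of the 10 genes was -0.20, against -0.03 over all tested genes. Of the 10 genes 8 were below 0, where 53.8% of all tested genes were. On the common FPKM total the member median was -0.11 and that of all tested genes 0.05, and Mccc2 crossed 0.

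Because abundant genes have narrow intervals, the intervals were read against the 1775 genes with at least 1000 counts in either library, a minimum chosen after seeing the data. Of the 9 members in that class, 7 had an interval wholly below 1, against 39.9% of the class, and none had one above 1, against 29.5%. At 1.5-fold 1 of the 9, Bcat2, was lower, against 1.69% of the class. On that common total the interval lay below 1 for 6 of the 9, against 25.5% of the class. Those 6 were Bcat2, Bckdha, Dbt, Bckdk, Ivd and Hibch. The interval of Bckdhb then included 1, and that of Mccc1 lay above 1. Counting intervals say nothing of the spread between mice, so these shares describe the 2 libraries.

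**Figure D4:**
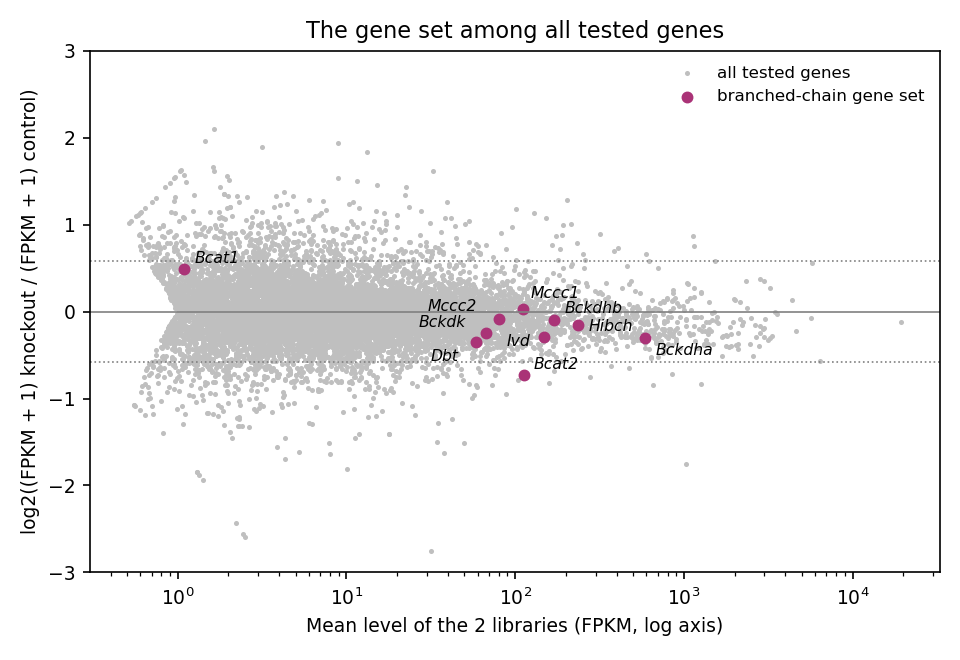
Log2 ratio of FPKM + 1, knockout over control, against the mean FPKM of both libraries on a log axis, for 11746 tested genes (grey) and the 10 genes (purple). Dotted lines mark 1.5-fold. Bcat2 lies below the lower line, 7 other members lie between it and 0, and Mccc1 and Bcat1 lie above 0.

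The log2 ratio varied with transcript length. Over 10 length classes of equal size, the median was -0.16 in the shortest and 0.05 in the longest. The members spanned 1419 bases in Bckdhb to a mean of 7859 in Bcat1. Relative to the median of its length class, Bcat2 stood at -0.67, Bckdha at -0.25, Dbt at -0.35 and Ivd at -0.26, while Bckdhb was at 0.00. The part of length in these values was otherwise not tested.

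The other enzymes of the route were described from a list of 26 genes, all tested. Of these 18 were below 0 and 8 above, against 53.8% of all tested genes below 0. One of them, Ppm1k, was called lower and none higher, a share near the 3.41% called lower over all tested genes. Their median log2 ratio was -0.10, and -0.02 on the common FPKM total. On the leucine side Oxct1, which lets tissues burn acetoacetate, was at 159 and 127 FPKM, giving a ratio of 0.800 (0.768 to 0.832). Acat1, the acetoacetyl-CoA thiolase, had a ratio of 0.934 (0.911 to 0.957) and Auh, the hydratase that follows the carboxylase, 1.07 (1.003 to 1.14). On the isoleucine side the dehydrogenase Hsd17b10 was at 229 and 163 FPKM, giving a ratio of 0.712 (0.665 to 0.763), and Acadsb, the short branched-chain acyl-CoA dehydrogenase, had 0.812 (0.768 to 0.858). Acaa2 and Hadha, which mainly serve fatty acid oxidation, had 0.878 (0.866 to 0.890) and 1.09 (1.07 to 1.11).

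On the valine side Aldh6a1, the methylmalonate semialdehyde dehydrogenase, was at 265 and 216 FPKM, giving a ratio of 0.817 (0.792 to 0.843). Acad8, the isobutyryl-CoA dehydrogenase, had 0.926 (0.856 to 1.002) and Hibadh, which acts after Hibch, 0.961 (0.928 to 0.994). Abat, a transaminase of GABA and of a valine product, was scarce at 0.99 and 1.77 FPKM, giving a ratio of 1.79 (1.23 to 2.64). Like Bcat1, Abat reached the minimum of 1 FPKM only through the knockout library. In the stretch from propionyl-CoA to succinyl-CoA 5 of 8 genes were below 0, against 53.8% of all tested genes. The median of the 8 was -0.01. The epimerase Mcee had the lowest ratio there, 0.730 (0.668 to 0.797), the carboxylase subunit Pccb had 0.864 (0.836 to 0.892), and the cobalamin-handling Mmadhc and Mmachc had 0.855 (0.788 to 0.929) and 1.19 (1.05 to 1.34).

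**Figure D5:**
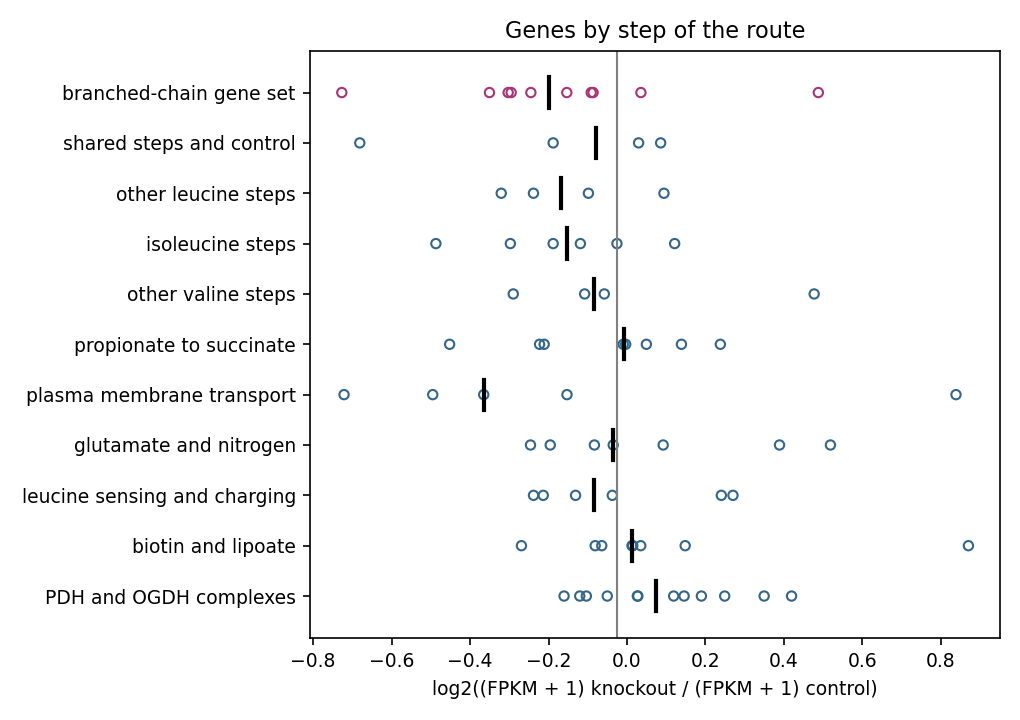
Log2 ratio of FPKM + 1, knockout over control (horizontal), of each tested gene (circles) by step of the route or neighbouring list (vertical). Black bars are list medians and the grey line is the median of all tested genes, -0.03. The 10 genes have a median of -0.20, and the pyruvate and oxoglutarate dehydrogenase list lies to the right of the line at 0.07.

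The sister complexes built on the same plan, the pyruvate and oxoglutarate dehydrogenases, were compared as the closest relatives. Of 12 tested genes of those complexes and their regulators 8 were above 0 and 4 below, where 53.8% of all tested genes were below 0. None of the 12 was called, where 3.41% of all tested genes were called lower and 4.35% higher. The median of the 12 was 0.07. The interval lay above 1 for 7 and below 1 for 2, where among the 10 branched-chain genes it lay above 1 for 1 and below 1 for 7, and over all tested genes above 1 for 18.2% and below 1 for 22.4%. Most genes of both lists had at least 1000 counts in either library. Among all genes with such counts the interval lay above 1 for 29.5% and below 1 for 39.9%. Pdhb, the beta subunit of the pyruvate complex, had a ratio of 1.19 (1.16 to 1.22), its core subunit Dlat 1.14 (1.10 to 1.18), the inhibitory kinase Pdk1 1.36 (1.24 to 1.48) and the phosphatase Pdp1 1.41 (1.05 to 1.90). The difference between the lists has no replicate check.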

How the data were processed

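Per the labels' protocols, libraries were made with PCR from polyadenylated RNA of frozen brown fat after DNase treatment. Strand is not mentioned, so reads of overlapping antisense genes are not separated. The lncRNAs Mccc1os (0.45 and 0.99 FPKM) and 0610005C13Rik (0.60 FPKM and not listed) overlap Mccc1 and Bcat2.

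The authors deposited, per the file headers, an expected count (reads matching several genes are divided among them), an FPKM and a transcript length per gene. RSEM (no version) and mm9 are named in the submitters' processing notes, and no source used here gives an aligner. Counts were whole to within 0.05 for 94.0% and 94.1% of genes. A gene not listed in a library was set to 0.

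Symbols came from RefSeq (GRCm38.p6) by Entrez identifier, for 16134 of 16174 genes. Ratio intervals are Clopper-Pearson, exact and conditional on the summed rounded expected counts, and levels have exact Poisson intervals (Python 3.11.15, scipy 1.17.1). The calling code was tested on simulated data. No p-value was computed. Each list's named genes were up to 4 with the largest absolute log2 ratio, and 2 genes that this rule names are not reported here. The members and lists were chosen with earlier results of these data known. Promoter stretches took RefSeq's upstream-most start.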

Additional observations from a re-analysis of the deposited data

How the results depend on the processing

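Of 11 other settings, 1 was chosen after seeing the data (at least 1000 counts). Across them, Bcat2 was below 0 in all and called lower in all but the 2-fold threshold, where the count of called members was 0. With a pseudocount of 0.1 or with CPM, 1 member (Bcat1) and 1 other gene of the route (Abat) were called higher. Both reached 1 FPKM only in the knockout library, and these settings called more genes of all kinds, as given below. Bcat1 fell under the minimum in the alternatives with a mean of at least 5 FPKM or at least 1000 counts and has no value there. The count of other route genes called lower was 0 with a pseudocount of 5, at 2-fold and at 1000 counts. Bckdhb was at 0.00 relative to its length class, and Mccc2 crossed 0 under both rescalings to the same FPKM total. The member median was -0.11 when the 20 most abundant genes were left out of that total, against 0.05 over all tested genes. Of the 9 members with at least 1000 counts, 5 then had an interval below 1, against 443 of all 1775 such genes. The interval then lay above 1 for 1 of the 9, against 789 of the 1775. Over all tested genes, 511 were called higher and 401 lower. These counts were 747 and 620 with a pseudocount of 0.1, 136 and 107 with 5, and 687 and 554 with CPM. They were 221 and 191 at a mean of 5 FPKM, 106 and 79 at 2-fold, and 59 and 30 at 1000 counts. With both libraries on the same FPKM total the split was 663 higher and 294 lower. With 1 library per genotype no replicate could be left out, and among the 10 genes Bcat1 rests on the fewest counts.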

Other observations

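Genes around the route were also read, from lists of uptake, nitrogen handling, leucine sensing and cofactors. Their calls are to be read beside the 3.41% of all tested genes called lower and the 4.35% called higher. Of 6 plasma membrane transporters 5 were tested, 4 below 0 and 1 above, where 53.8% of all tested genes were below 0. Slc7a8, a light chain that carries large neutral amino acids, was at 5.99 FPKM in control tissue and 3.24 FPKM in knockout tissue, giving a ratio of 0.541 (0.433 to 0.673), and was called lower. Its heavy chain partner Slc3a2 had 0.771 (0.701 to 0.847) and Slc43a1, a leucine carrier, 0.581 (0.365 to 0.915). Slc43a3, at 10.2 and 19.0 FPKM with a ratio of 1.87 (1.60 to 2.18), was called higher, and it is known as a carrier of purine bases rather than of amino acids. Slc7a5, the other light chain, was below 1 FPKM in both libraries, at 0.36 and 0.77 FPKM.

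Among genes that take up the amino group or handle glutamate, the alanine transaminase Gpt2 had a ratio of 1.34 (1.16 to 1.56). Glud1, glutamate dehydrogenase, had 0.842 (0.803 to 0.883) and Got1, the cytosolic aspartate transaminase, 0.866 (0.738 to 1.01). In the leucine sensing and charging list none of 6 genes was called, where 3.41% of all tested genes were called lower and 4.35% higher. Sesn1 had the highest log2 ratio of that list, 0.27. Among the biotin and lipoate genes the biotin enzyme Acaca, which makes malonyl-CoA for fatty acid synthesis, was called higher with a ratio of 1.83 (1.79 to 1.88). The ligase Hlcs, which attaches biotin to it and to Mccc1, was at 1.77 and 2.07 FPKM, with an interval of 0.865 to 1.59.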
